A study of Mus musculus with 16 samples.

Results

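The genes described here move calcium into, within and out of the heart muscle cell. They are the pumps Atp2a1 and Atp2a2, their small inhibitors Pln and Sln, the release channel Ryr2, the storage proteins Casq1 and Casq2, the reticulum protein Hrc, the channel subunit Cacna1c and the exchanger Slc8a1. Their probes were taken by the gene name printed in the array files, and each probe was kept apart. This gave 22 probes for 10 genes, of 41174 probes on the array. Of the 22, 16 gave a heart signal well above background in 4 or more of the 16 hearts and were tested, among 16830 probes tested in all.

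Hearts of 12 week old mice were compared in 4 strain-matched genotypes, with 4 hearts in each and 1 heart per array. Double null mice lacked both MuRF1 and MuRF2 (MuRF1 -/-, MuRF2 -/-). MuRF1 null MuRF2 het mice lacked MuRF1 and carried 1 MuRF2 allele (MuRF1 -/-, MuRF2 +/-), and MuRF1 het MuRF2 null mice carried 1 MuRF1 allele and lacked MuRF2 (MuRF1 +/-, MuRF2 -/-). Wild type mice had both genes intact (MuRF1 +/+, MuRF2 +/+). The strain of the hearts, the kind of null allele and whether it acts outside the heart were not given in the labels. MuRF1 and MuRF2, encoded by Trim63 and Trim55, are muscle ubiquitin ligases of the sarcomere. Values are log2 ratios of the heart signal, in the Cy5 channel, over that of a common reference in the Cy3 channel. The reference was a pool made from entire C57BL/6 pups at postnatal day 1. A difference of 1 on this scale is 2-fold. In whole hearts, fewer cells of a type and less RNA per cell cannot be told apart.

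At each beat, calcium enters through the L-type channel, whose pore is Cacna1c, and opens the ryanodine receptor Ryr2 in the sarcoplasmic reticulum, the internal calcium store. Relaxation follows as SERCA pumps return calcium to the store and the sodium-calcium exchanger Slc8a1 carries the rest out of the cell. SERCA2, encoded by Atp2a2, is the pump of the heart, while SERCA1, encoded by Atp2a1, is the pump of fast skeletal muscle.

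The arrays differed in brightness. Cy5 signal was well above background for 6065 to 14520 probes on the double null arrays, 6425 to 15084 on the MuRF1 null MuRF2 het arrays, 16143 to 17410 on the MuRF1 het MuRF2 null arrays and 15189 to 16690 on the wild type arrays. The dimmest were double null 2 and MuRF1 null MuRF2 het 1. On these 2 arrays ratios lay closer to 0 over all tested probes. Their slopes against the wild type mean were 0.49 for double null 2 and 0.56 for MuRF1 null MuRF2 het 1. Slopes were 0.82 to 0.87 on the other double null arrays and 0.83 to 0.98 on the other MuRF1 null MuRF2 het arrays. They were 0.91 to 0.97 on the MuRF1 het MuRF2 null arrays and 0.97 to 1.03 on the wild type arrays. All double null slopes were thus below all wild type slopes. The double null and wild type hearts were spread evenly over slides 1 and 3. All MuRF1 null MuRF2 het hearts were on slide 2 and all MuRF1 het MuRF2 null hearts on slide 4, so that slide and genotype cannot be told apart in any comparison with these groups. Trim63, read by its brighter probe, averaged -0.72 ± 0.27 in the double null group, -0.64 ± 0.22 with MuRF1 null and MuRF2 het, 1.94 ± 0.21 with MuRF1 het and MuRF2 null, and 2.63 ± 0.09 in the wild type group (SD, n = 4 each). The Trim55 probe gave no such separation, with differences from wild type of 0.37 for double null, 0.70 for MuRF1 null MuRF2 het and 0.44 for MuRF1 het MuRF2 null hearts that did not pass, and the labels do not say which part of the gene was removed.

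Of the 16 probes, 9 probes of 5 genes fell in double null hearts relative to wild type and none rose (limma, adjusted p under 0.05, Benjamini-Hochberg over all probes). Of all probes tested, 20.9% were called in that comparison, 8.97% higher and 11.9% lower. The genes were Atp2a2, Ryr2, Hrc, Slc8a1 and, by 1 of its 2 probes and uncertain as described with its values, Atp2a1. Both Ryr2 probes passed the filter mainly through other genotypes, as described with their values. The median difference of the 16 was -0.56, against -0.01 over all probes tested. All 13 negative differences were at probes with a positive mean ratio in wild type hearts. The positive differences were at Atp2a1 A_52_P686130, Sln and Casq1, with wild type means of -1.96, -4.10 and -0.88. Lower slopes on the double null arrays move ratios in these same directions. The median does not separate that from a change in these genes. Pln, Sln, Casq1, Casq2 and Cacna1c had no probe that passed. Treating array brightness in 2 other ways left 4 probes called each time. Without the 2 dimmest arrays 12 were called, 11 lower and 1 higher, as given with the comparison of settings. The share of all probes called under these settings is not given, so these counts are not read as particular to the members.

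The 60-base probes behind these values are shown where they lie in coding sequence, because 2 probes of 1 gene could read different transcripts. Sequences are those printed in the array files, 5′ to 3′, with no base singled out by capitals. Coordinates are also from the array files, and no source used here names their genome build. The 2 probes of Atp2a1, the skeletal pump, lie at chr7:122544747-122544806 and chr7:122543142-122543485 on the minus strand. The second is drawn from a stretch longer than itself, and so crosses an intron.
Atp2a1 A_51_P244856: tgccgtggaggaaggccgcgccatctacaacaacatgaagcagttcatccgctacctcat
Atp2a1 A_52_P686130: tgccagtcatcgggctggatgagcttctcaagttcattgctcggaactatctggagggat
Atp2a2 is read over a coding stretch by 1 probe, at chr5:121694873-121694932 on the minus strand.
Atp2a2 A_52_P168097: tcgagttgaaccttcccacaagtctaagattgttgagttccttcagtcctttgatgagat
Ryr2 is shown at chr13:11486533-11489004, Hrc at chr7:41513625-41513882 and Casq1 at chr1:172180644-172182147, all 3 across an intron, and Slc8a1 at chr17:79705536-79705595. Hrc lies on the plus strand and the other 3 on the minus strand.
Ryr2 A_51_P391655: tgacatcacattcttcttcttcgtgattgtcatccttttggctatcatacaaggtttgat
Hrc A_51_P267751: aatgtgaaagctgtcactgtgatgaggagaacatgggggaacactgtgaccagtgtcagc
Casq1 A_51_P199104: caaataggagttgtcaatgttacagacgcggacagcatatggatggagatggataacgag
Slc8a1 A_52_P562704: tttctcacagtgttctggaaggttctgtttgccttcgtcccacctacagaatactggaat

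Atp2a2, the SERCA2 pump, fell in double null hearts by all 3 of its tested probes. The probe A_51_P451075, the one nearest the 3′ end of the gene, read 4.05, 4.58, 4.15 and 4.15 on the double null arrays, against 5.01, 4.92, 4.76 and 4.88 on the wild type arrays. Every double null array lay below every wild type array. Here and below, the share of all probes tested that separated in this way was not counted. The difference was -0.66 ± 0.14 (SE), or 1.58-fold lower (limma, adjusted p = 0.00497). The probe A_52_P569001 read 0.21, 0.26, 0.44 and 0.36 on the double null arrays, against 1.15, 1.16, 1.24 and 1.03 on the wild type arrays, again without overlap. It differed by -0.83 ± 0.15 (limma, adjusted p = 0.00235).

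The coding probe of Atp2a2, A_52_P168097, gave the widest spread. It read 2.52, 1.19, 3.26 and 3.12 on the double null arrays, against 4.24, 4.21, 4.45 and 4.30 on the wild type arrays. The lowest value came from the dimmest array, and the other 3 double null arrays were also below every wild type array. The difference was -1.78 ± 0.54 (limma, adjusted p = 0.0300) over all arrays and -1.33 (adjusted p = 0.000111) without the 2 dimmest arrays. In a fit with Cy5 brightness (the median log2 Cy5 signal of each array) added as a covariate it was -0.64 (adjusted p = 0.237). The call was also lost, at adjusted p of up to 0.0819, when any 1 of double null 1, double null 2 or the 4 wild type arrays was left out.

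In the other genotypes Atp2a2 gave no call against wild type. The probe A_51_P451075 averaged 4.97 ± 0.24 with MuRF1 null and MuRF2 het, 4.51 ± 0.22 in MuRF1 het MuRF2 null and 4.89 ± 0.11 in wild type hearts (SD, n = 4 each). It was the 1 member probe called between the groups without MuRF1: it was lower in double null than in MuRF1 null MuRF2 het hearts, at a difference of -0.73 ± 0.14 (limma, adjusted p = 0.0451). Of all probes, 0.244% were called in that comparison, 0.113% higher and 0.131% lower. The call was lost in 12 of the 16 fits that left out 1 array. A_52_P569001 was lower in double null than in MuRF1 het MuRF2 null hearts, at a difference of -0.94 ± 0.15 (limma, adjusted p = 0.000797). A further Atp2a2 probe, A_52_P1156808, was not well above background on any array.

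The 2 Atp2a1 probes disagreed. The probe A_51_P244856 read 0.57, 0.33, 1.16 and 0.79 on the double null arrays, against 2.20, 2.35, 2.67 and 2.35 on the wild type arrays, with no overlap. The difference was -1.68 ± 0.36, or 3.21-fold lower (limma, adjusted p = 0.00548). The probe A_52_P686130 read -1.65, -0.81, -1.80 and -1.80 on the double null arrays, against -1.80, -2.06, -2.20 and -1.78 on the wild type arrays.

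The second Atp2a1 probe thus overlapped between groups, and its difference of 0.44 ± 0.22 did not pass (limma, adjusted p = 0.162). Its highest double null value came from the dimmest array, and with median centring in place of loess the difference was -0.51. The 2 probes also differed in sign against the reference, since heart RNA gave more signal than pup RNA at the first and less at the second. The first lies in a stretch of the coding sequence that is similar among SERCA pumps, and whether its signal includes other members of the family was not tested. Over the 16 arrays it ran with the coding probe of Atp2a2 at a Pearson correlation of 0.91 and with the other Atp2a1 probe at -0.68, as a description of arrays that share the dim ones. The fall read by A_51_P244856 is therefore given as uncertain for Atp2a1.

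Without the MuRF1 alleles but with 1 MuRF2 allele, A_51_P244856 read 0.07, 1.98, 1.99 and 2.22, and with 1 MuRF1 allele but no MuRF2 it read 1.26, 1.86, 1.78 and 0.92. The first of these 8 values is from the dimmest array of its group. All 4 MuRF1 het MuRF2 null arrays lay below all wild type arrays, at a difference of -0.94 ± 0.36 that did not pass (limma, adjusted p = 0.208). It passed when the 2 dimmest arrays of the other groups were left out, again at -0.94 (adjusted p = 0.00644).

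Phospholamban, encoded by Pln, restrains SERCA2 until it is phosphorylated. Its probe read 4.85, 3.14, 5.09 and 4.81 on the double null arrays, 3.61, 5.57, 5.68 and 5.87 on the MuRF1 null MuRF2 het arrays, 5.96, 6.25, 6.30 and 5.78 on the MuRF1 het MuRF2 null arrays and 5.39, 5.52, 5.68 and 5.38 on the wild type arrays. All double null values lay below all wild type values, and all MuRF1 het MuRF2 null values above them. The lowest double null value and the lowest MuRF1 null MuRF2 het value came from the 2 dimmest arrays.

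For Pln the difference between double null and wild type was -1.02 ± 0.44 and did not pass (limma, adjusted p = 0.102). It passed without the 2 dimmest arrays, at -0.58 (adjusted p = 0.00361), and on slide 3 alone, at -0.58 (adjusted p = 0.0134). It was -0.07 (adjusted p = 0.889) with Cy5 brightness as a covariate, and 0.47 (adjusted p = 0.107) once ratios were divided by each array's slope. Pln was lower in double null than in MuRF1 het MuRF2 null hearts, at a difference of -1.60 ± 0.44 (limma, adjusted p = 0.0151).

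Sarcolipin, encoded by Sln, inhibits SERCA pumps and in the mouse heart is mainly atrial. The probe A_52_P413395 read -3.43, -1.05, -3.90 and -3.55 on the double null arrays, -1.94, -4.00, -3.34 and -3.25 on the MuRF1 null MuRF2 het arrays, -3.74, -3.83, -3.95 and -3.52 on the MuRF1 het MuRF2 null arrays and -3.86, -4.16, -4.36 and -4.03 on the wild type arrays. The 2 values nearest to 0 came from the 2 dimmest arrays, and the remaining values of all groups lay between -4.36 and -3.25. The difference between double null and wild type was 1.12 ± 0.49 and did not pass (limma, adjusted p = 0.109). Without the 2 dimmest arrays it was 0.47 (adjusted p = 0.0493), and with Cy5 brightness as a covariate -0.03.

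Atrial markers moved in the same comparison. Of 9 tested probes for atrial genes, 4 were higher and 2 lower in double null than in wild type hearts. This was 66.7% called, against 20.9% of all probes. Over all 16 atrial probes on the array, summed normalised Cy5 intensity was 31017 to 91031 on the double null arrays, against 3504 to 4323 on the wild type arrays. Such a sum follows the brightest probes. The mean log2 ratio of the 16 was 0.296 to 0.588 on the double null arrays, against -0.096 to 0.004 on the wild type arrays. This mean is moved most by the Nppa probes and does not speak for the atrial list as a whole. Nppa, the gene of atrial natriuretic peptide, which ventricles also express under load, averaged 5.48 in double null and 1.94 in wild type hearts at its probe A_51_P361340. At its probe A_52_P580582 it averaged 5.21 in double null and 2.31 in wild type hearts. The atrial light chain Myl7 differed by 0.77 (limma, adjusted p = 0.0485). The transcription factor Tbx5 was among the lower, at 0.26 in double null and 1.20 in wild type hearts (A_52_P523712), as was the channel gene Kcnj3, at 0.20 in double null and 0.93 in wild type hearts (A_52_P445799). The part of atrial tissue in the Sln values was not tested. The second Sln probe, A_51_P297498, was not well above background on any array.

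**Figure D1:**
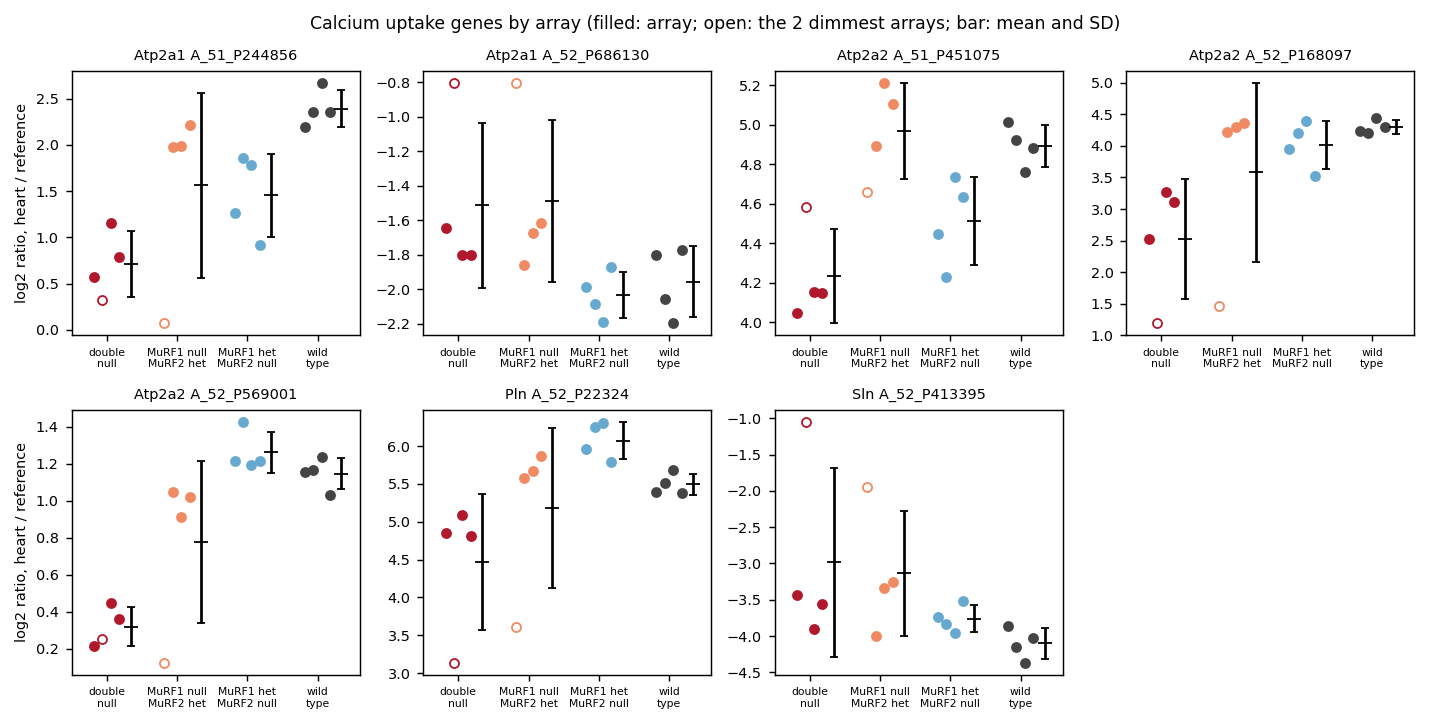
Log2 ratio of heart to reference RNA (vertical axis) for the 7 tested probes of Atp2a1, Atp2a2, Pln and Sln, by genotype (horizontal axis), with 1 point per array, open points for the 2 dimmest arrays, and the mean with its SD beside them. The 4 double null points lie below the 4 wild type points for all 3 Atp2a2 probes, for Atp2a1 A_51_P244856 and for Pln. How many of all probes tested separate in this way was not counted. The open points stand apart for Pln, Sln and the Atp2a2 probe A_52_P168097.

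Ryr2, the calcium release channel of the reticulum, read lower in double null hearts by both tested probes, which were dim. Both passed the filter mainly through MuRF1 het MuRF2 null and wild type arrays. A probe kept in this way is likely to read lower in double null hearts, so these calls are weak support for a fall. The probe A_52_P10205 read 0.23, 0.27, 0.56 and 0.30 on the double null arrays, against 0.65, 0.74, 1.02 and 0.60 on the wild type arrays. It was well above background on 1 of the 4 double null arrays, against all 4 wild type arrays. The groups did not overlap, and the difference was -0.41 ± 0.12 (limma, adjusted p = 0.0303). This call was lost with Cy5 brightness as a covariate, at -0.20 (adjusted p = 0.245), and on slide 3 alone, at -0.38 (adjusted p = 0.105). It was lost too when double null 1, 2 or 4 or wild type 2 or 3 was left out, with adjusted p of up to 0.102.

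The coding probe of Ryr2, A_51_P391655, read -0.08, 0.02, 0.17 and 0.05 on the double null arrays, where none of the 4 was well above background, against 0.43, 0.58, 0.80 and 0.66 on the wild type arrays, where all 4 were. The Cy5 signal was at least 1.24-fold lower, taking the background limit of each double null array as its value. The log2 ratios passed (limma, adjusted p = 0.00828), which is a test of the ratios and not of this bound. Cy3 was not well above background on any array for either probe. Both were also lower in double null than in MuRF1 het MuRF2 null hearts. The difference was -0.57 ± 0.12 at A_52_P10205 (limma, adjusted p = 0.00468). At A_51_P391655 the Cy5 signal was at least 1.27-fold lower, and the log2 ratios passed (limma, adjusted p = 0.00252). A_52_P10205 was lower in MuRF1 null MuRF2 het than in MuRF1 het MuRF2 null hearts, at a difference of -0.50 ± 0.12 (limma, adjusted p = 0.0248). A further probe, A_52_P102755, lies on the strand opposite to the gene and was not well above background on any array.

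Hrc, the histidine-rich calcium binding protein of the reticulum, fell in double null hearts. It read 1.08, 1.02, 1.26 and 1.12 on the double null arrays, 1.32, 2.31, 1.75 and 2.30 on the MuRF1 null MuRF2 het arrays, 2.89, 2.64, 2.35 and 2.95 on the MuRF1 het MuRF2 null arrays and 2.17, 2.20, 2.28 and 2.17 on the wild type arrays. No double null array reached any array of the other genotypes. All MuRF1 het MuRF2 null arrays lay above all wild type arrays, at a difference of 0.50 ± 0.18 that did not pass (limma, adjusted p = 0.172).

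The Hrc difference between double null and wild type was -1.09 ± 0.18, or 2.12-fold lower (limma, adjusted p = 0.00113). The difference was -1.13 on slide 1 and -1.04 on slide 3, -0.80 with Cy5 brightness as a covariate (adjusted p = 0.00467) and -0.66 after division by the slope (adjusted p = 0.0208). It passed in 30 of the 31 alternatives, the exception being slide 1 alone with 2 arrays per group (adjusted p = 0.0998). Atp2a1 A_51_P244856 passed in as many, with the same exception (adjusted p = 0.0823). The alternatives are not independent of each other, since leaving out an array of another genotype does not change the difference itself. Hrc was lower in double null than in MuRF1 het MuRF2 null hearts, at a difference of -1.59 ± 0.18 (limma, adjusted p = 8.29e-05), and lower in MuRF1 null MuRF2 het than in MuRF1 het MuRF2 null hearts, at a difference of -0.79 ± 0.18 (adjusted p = 0.0188). Against MuRF1 null MuRF2 het hearts the double null difference of -0.80 ± 0.18 did not pass (adjusted p = 0.0888), and without the 2 dimmest arrays it was -0.97 (adjusted p = 0.00331).

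The 250 bases before the Hrc start are shown because its fall passed in all but 1 alternative. They are from RefSeq in the build GRCm38.p6, chr7:45335019-45335268 on the plus strand, and the capitals mark the motif CAGCTG.
Hrc promoter: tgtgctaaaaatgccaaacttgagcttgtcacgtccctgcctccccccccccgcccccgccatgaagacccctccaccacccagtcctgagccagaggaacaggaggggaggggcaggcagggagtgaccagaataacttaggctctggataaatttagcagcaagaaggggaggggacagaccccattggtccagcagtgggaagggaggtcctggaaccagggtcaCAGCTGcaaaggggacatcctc
RefSeq promoters were found for 8 of the 10 genes, 10 promoters in all since Cacna1c has 3, and not for Atp2a2 or Sln. In windows of this length, both strands searched, CAGCTG was in 3 of the 10, those of Atp2a1, Casq1 and Hrc, and in 13% of 32851 promoters. AGATAA was in 2, those of Pln and Slc8a1, and in 9.99% of all. TATAAA was in that of Pln and in 12.4% of all, while CATTCC (12.6% of all), TTTNNCGC (4.28%), the MEF2 motif (0.508%) and the CArG box (1.47%) were in none of the 10.

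Calsequestrins hold calcium in the store, Casq2 in the heart and Casq1 mainly in skeletal muscle. Casq2 read 1.11, 0.68, 1.12 and 1.01 on the double null arrays, against 1.46, 1.33, 1.21 and 1.46 on the wild type arrays. The groups did not overlap, and the difference of -0.39 ± 0.14 did not pass (limma, adjusted p = 0.0664). Without the 2 dimmest arrays it was -0.29 (adjusted p = 0.0480).

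Casq1 read -0.80, -0.36, -0.90 and 2.06 on the double null arrays, against -0.77, -1.02, -0.91 and -0.83 on the wild type arrays. The double null heart of replicate 4 stood far above the rest of its group, and the other 3 were near wild type. The difference of 0.88 ± 0.45 did not pass (limma, adjusted p = 0.161), and without that heart it was 0.19 (adjusted p = 0.434). Over all 18 probes for fast skeletal muscle genes, the mean log2 ratio was -2.085 on the array of that heart. It was -0.947 on double null 2, the dimmest array, and -2.272 to -2.016 on the other double null arrays. On the wild type arrays it was -2.535 to -2.204. The summed Cy5 intensity of these probes follows the brightest of them. It was 36702 on double null 2 and 13129 to 13819 on the other double null arrays, with 13819 on double null 4. The wild type arrays gave 17541 to 17914. Of 15 tested fast skeletal probes 2 were called higher in double null hearts and 1 lower, or 20% called against 20.9% of all probes. An unadjusted p under 0.05 (limma) was found for 13 of the 15, against 37.3% of all probes. The median difference was 0.69, against -0.01 over all probes. Apart from the probe called lower, the mean wild type ratios of the 15 were -3.95 to -1.65. Lower slopes on the double null arrays move such ratios upward, and the part of this in the differences was not tested. The part of fast skeletal muscle genes in the Casq1 values was not tested.

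Cacna1c, the pore of the L-type channel, gave no call against wild type. The probe A_51_P376996 read 0.11, 0.01, 0.80 and 0.59 on the double null arrays, 0.07, 1.17, 0.22 and 1.06 on the MuRF1 null MuRF2 het arrays, 1.34, 1.65, 1.56 and 1.52 on the MuRF1 het MuRF2 null arrays and 0.70, 0.79, 0.89 and 0.82 on the wild type arrays. The MuRF1 het MuRF2 null arrays were all higher than the arrays of the other genotypes. Their difference from wild type was 0.72 ± 0.22 (limma, adjusted p = 0.110), and that of double null hearts was -0.42 ± 0.22 (adjusted p = 0.173). The probe A_52_P25903 ran from 0.02 to 0.59 on the double null arrays, -0.06 to 1.00 on the MuRF1 null MuRF2 het arrays, 0.97 to 1.13 on the MuRF1 het MuRF2 null arrays and 0.22 to 0.82 on the wild type arrays. The MuRF1 het MuRF2 null arrays lay above the double null and wild type arrays and overlapped the MuRF1 null MuRF2 het arrays.

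Both Cacna1c probes were lower in double null than in MuRF1 het MuRF2 null hearts, A_51_P376996 at a difference of -1.14 ± 0.22 (limma, adjusted p = 0.00212) and A_52_P25903 at -0.84 ± 0.19 (adjusted p = 0.00578). A_51_P376996 was also lower in MuRF1 null MuRF2 het than in MuRF1 het MuRF2 null hearts, at a difference of -0.89 ± 0.22 (adjusted p = 0.0245). With Cy5 brightness as a covariate, both probes were higher in MuRF1 het MuRF2 null than in wild type hearts. The difference was 0.95 at A_51_P376996 (limma, adjusted p = 0.00108) and 0.61 at A_52_P25903 (adjusted p = 0.0100). By that covariate the MuRF1 het MuRF2 null arrays read 5.89 to 5.91 and the wild type arrays 5.91 to 5.94.

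Slc8a1, the sodium-calcium exchanger, fell in double null hearts by both tested probes. A_51_P277373 read 0.84, 0.21, 0.86 and 0.85 on the double null arrays, against 1.73, 1.62, 1.66 and 1.38 on the wild type arrays. A_52_P562704 read 0.45, 0.08, 0.58 and 0.40 on the double null arrays, against 0.91, 0.90, 0.93 and 0.91 on the wild type arrays. The dimmest array was lowest at both probes, and the groups did not overlap at either. The differences were -0.91 ± 0.27 (limma, adjusted p = 0.0262) and -0.54 ± 0.15 (adjusted p = 0.0208). With Cy5 brightness as a covariate they were -0.32 (adjusted p = 0.183) and -0.23 (adjusted p = 0.152), and both calls were lost. Leaving out double null 2 or wild type 3 also ended both calls, and leaving out wild type 1 or 2 ended that of A_51_P277373, with adjusted p of up to 0.0685.

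A_52_P562704 was lower in MuRF1 null MuRF2 het hearts too, without overlap with wild type, but the difference of -0.50 ± 0.15 did not pass (limma, adjusted p = 0.0929). It was lower in MuRF1 null MuRF2 het than in MuRF1 het MuRF2 null hearts, at a difference of -0.52 ± 0.15 (adjusted p = 0.0417). In double null against MuRF1 het MuRF2 null hearts, Slc8a1 was lower, at a difference of -1.11 ± 0.27 at A_51_P277373 (adjusted p = 0.00743) and of -0.56 ± 0.15 at A_52_P562704 (adjusted p = 0.0138). The other 3 Slc8a1 probes, A_52_P231461, A_52_P313284 and A_52_P244931, were not well above background on any array.

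**Figure D2:**
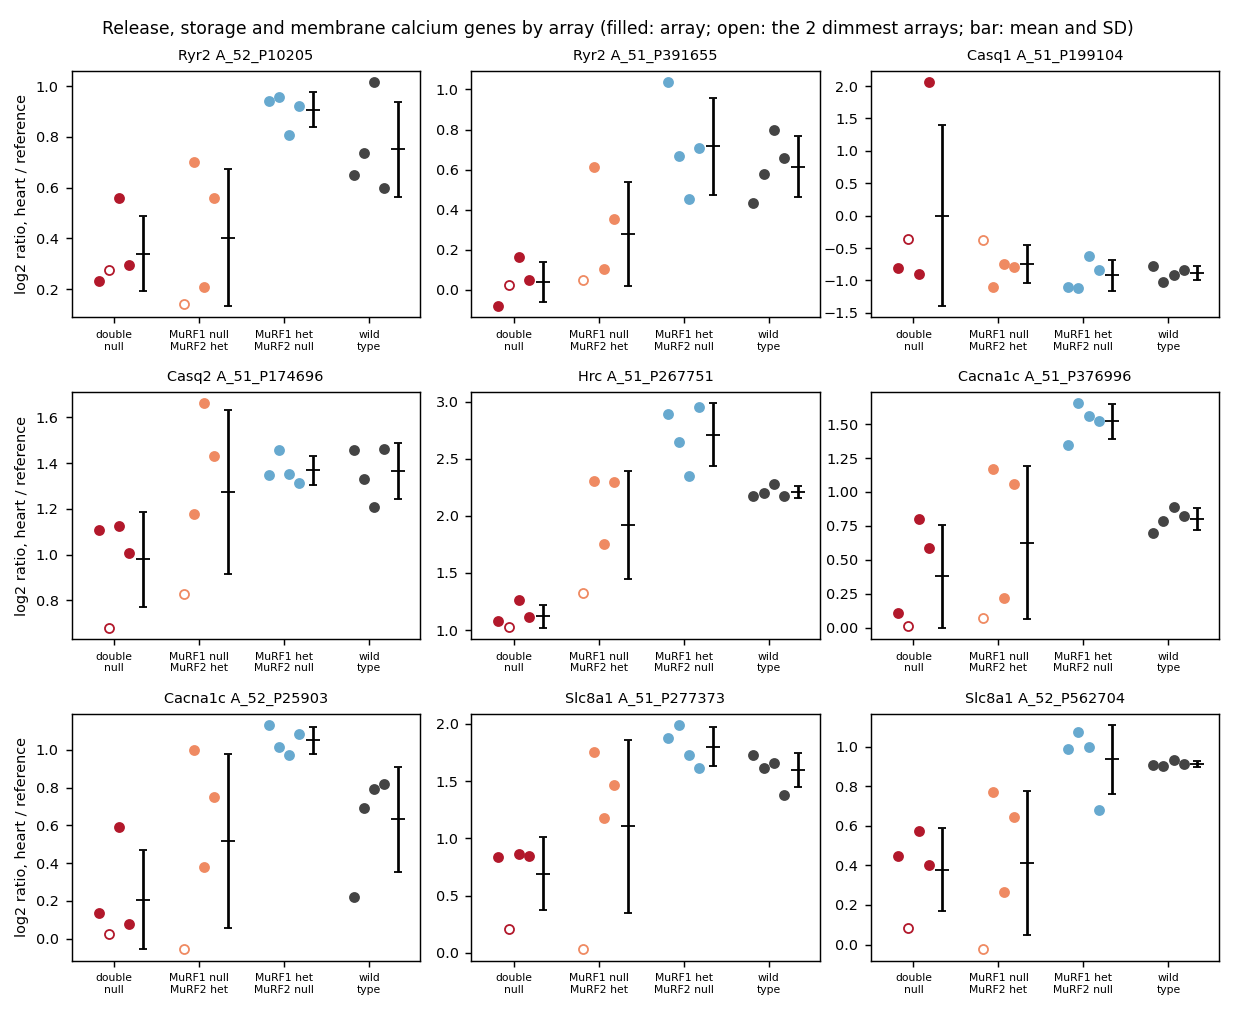
Log2 ratio of heart to reference RNA (vertical axis) for the 9 tested probes of Ryr2, Casq1, Casq2, Hrc, Cacna1c and Slc8a1, by genotype (horizontal axis), with 1 point per array, open points for the 2 dimmest arrays, and the mean with its SD beside them. Hrc lies between 1.02 and 1.26 on the 4 double null arrays, below every other array, and 1 double null array stands at 2.06 for Casq1.

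Across genotypes, no member probe passed by limma against wild type in either genotype with 1 allele left. An unadjusted p under 0.05 was found for 5 of the 16 in each comparison, against 23.1% of all probes for MuRF1 null MuRF2 het and 15.7% for MuRF1 het MuRF2 null hearts. Of all probes, 1.15% were called for MuRF1 null MuRF2 het hearts, 0.303% higher and 0.844% lower, and 1.68% for MuRF1 het MuRF2 null hearts, 0.576% higher and 1.11% lower. The median difference of the 16 was -0.30 in MuRF1 null MuRF2 het hearts, against -0.01 over all probes, and 0.11 in MuRF1 het MuRF2 null hearts, against 0.00 over all probes. With median centring in place of loess, 8 probes were lower in MuRF1 null MuRF2 het than in wild type hearts. That setting also put the median of all probes at -0.43 for double null and for MuRF1 null MuRF2 het hearts and at -0.32 for MuRF1 het MuRF2 null hearts.

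Double null hearts set against MuRF1 het MuRF2 null hearts had 9 of 16 probes lower and none higher, from Atp2a2, Pln, Ryr2, Hrc, Cacna1c and Slc8a1. Of all probes, 25.5% were called there, 12.2% higher and 13.3% lower. MuRF1 null MuRF2 het set against MuRF1 het MuRF2 null hearts had 4 of 16 lower and none higher, with 8.6% of all probes called, 4.27% higher and 4.33% lower. With 1 array left out these calls held in 13 of 16 fits for Hrc, 11 for Ryr2, 10 for Cacna1c and 6 for Slc8a1. These comparisons share the MuRF1 het MuRF2 null arrays, which were on a slide of their own. Those arrays had among the most probes with Cy5 well above background. By the median log2 Cy5 signal, the measure used as covariate, they read 5.89 to 5.91, against 5.91 to 5.94 on the wild type arrays. The double null comparisons share their arrays as well, so the counts are not independent of each other.

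**Figure D3:**
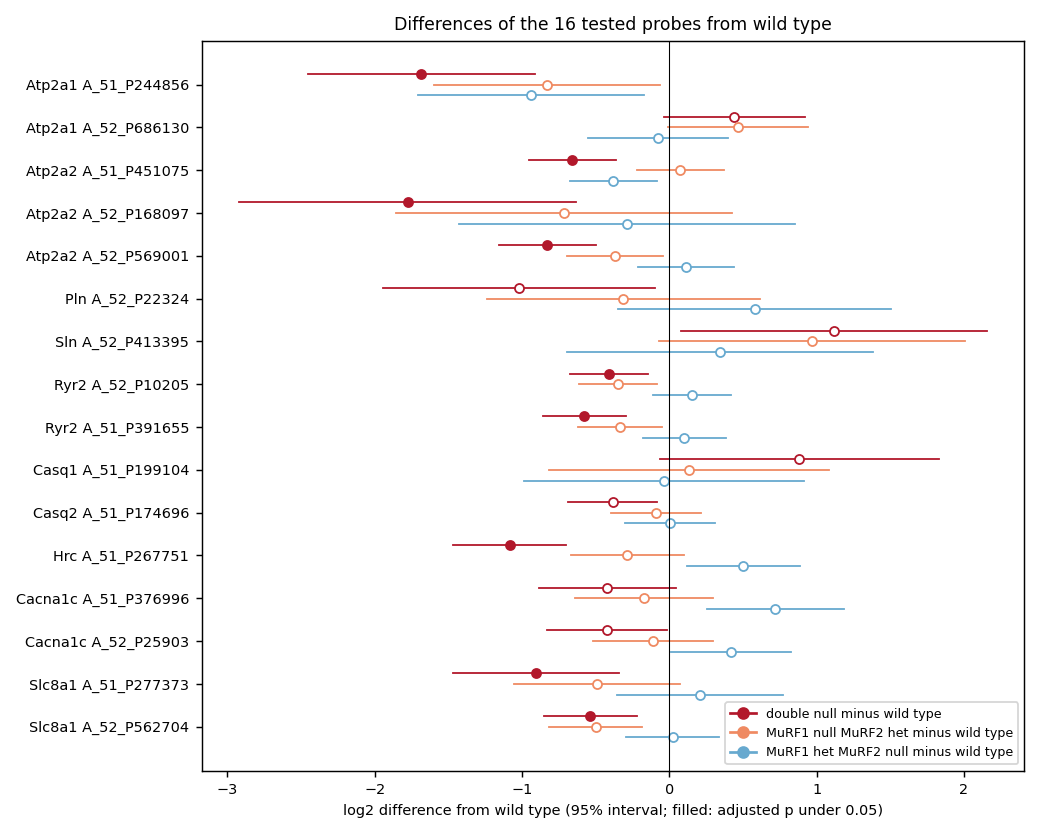
Log2 difference from wild type (horizontal axis) of the 16 tested probes (rows) in the 3 mutant genotypes, with lines for the 95% interval and filled points where the adjusted p was under 0.05. The 9 filled points all belong to double null hearts and lie below 0.

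Member ratios followed array brightness to different degrees. On the 2 dimmest arrays Pln read 3.14 and 3.61, against 4.81 to 6.30 on the other 14 arrays, and the coding probe of Atp2a2 read 1.19 and 1.46, against 2.52 to 4.45. For Atp2a2 A_51_P451075 the 2 dimmest arrays lay within the range of the rest. On the other 3 double null and 3 MuRF1 null MuRF2 het arrays, with 11518 to 15084 bright probes, Hrc was 1.08 to 1.26 in double null and 1.75 to 2.31 in MuRF1 null MuRF2 het hearts.

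**Figure D4:**
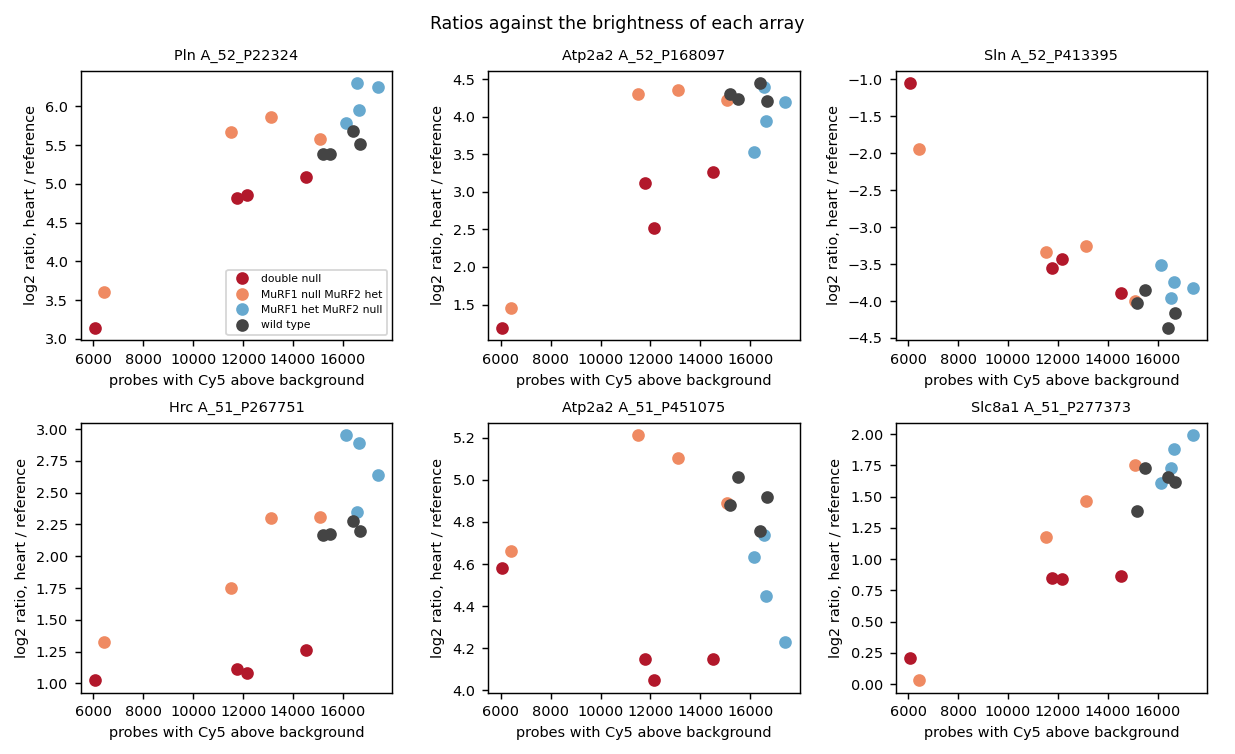
Log2 ratio of heart to reference RNA (vertical axis) for 6 member probes against the number of probes with Cy5 well above background on the same array (horizontal axis), 1 point per array, coloured by genotype. Pln and the Atp2a2 probe A_52_P168097 are lowest and Sln highest on the 2 dimmest arrays, while the double null points for Hrc lie between 1.02 and 1.26 at every brightness.

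The 9 calls between double null and wild type hearts were recomputed with brightness treated in other ways. With Cy5 brightness as a covariate 4 held, Atp2a1 A_51_P244856, Atp2a2 A_51_P451075 and A_52_P569001, and Hrc. With each array's ratios divided by its slope 4 probes were called, Atp2a1 A_51_P244856, Atp2a2 A_52_P569001, Ryr2 A_51_P391655 and Hrc. Under that division Atp2a2 A_51_P451075 turned to 1.10 (adjusted p = 0.375). Without the 2 dimmest arrays 12 probes were called, 11 lower and Sln higher, with Pln and Casq2 added to the 9. The double null arrays left in that fit still had slopes of 0.82 to 0.87. With slide as a block 9 were called, on slide 3 alone 10, and on slide 1 alone, which holds the dimmest double null array, none. The share of all probes called under each setting is not given here. A change in these counts is therefore not read as particular to the members.

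**Figure D5:**
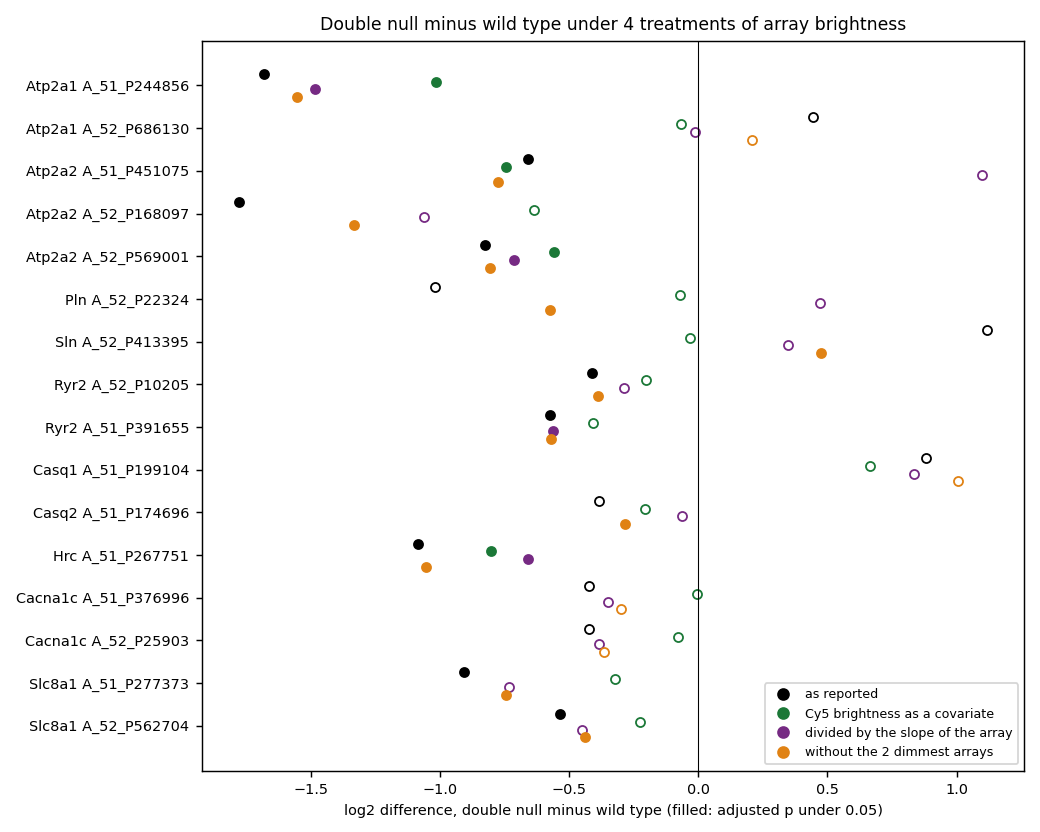
Log2 difference between double null and wild type hearts (horizontal axis) of the 16 tested probes (rows) as reported and under 3 other treatments of array brightness, filled where the adjusted p was under 0.05. Atp2a1 A_51_P244856, Atp2a2 A_52_P569001 and Hrc are filled and below 0 in all 4, and Atp2a2 A_51_P451075 lies at 1.10 once divided by the slope.

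Markers of some cell types in the heart moved in the same comparison, in which 20.9% of all probes were called. Of 22 tested cardiomyocyte probes, 8 were lower in double null than in wild type hearts and none was higher, or 36.4% called. Among the 8 were 2 probes of the myosin Myh6 at -1.66 and -1.52, while the median of the list was -0.16. Over all 23 cardiomyocyte probes on the array, summed normalised Cy5 intensity was 139452 to 179158 on the double null arrays, against 206883 to 218194 on the wild type arrays. Of 14 endothelial probes 13 were lower, or 92.9% called. Over all 20 on the array summed intensities were 2590 to 3156 in double null and 4639 to 5067 in wild type hearts. Of the 20, 4 to 13 were well above background on the double null arrays, against 14 on each wild type array. The endothelial values were thus partly near background, and the part of array brightness in them was not tested. Of 9 fibroblast probes 3 were higher, or 33.3% called. Summed fibroblast intensities overlapped, at 4815 to 13796 in double null and 6722 to 7956 in wild type hearts. Of 8 smooth muscle probes 2 were higher and 1 lower, and of 7 adipocyte probes 1 was higher. None of 8 macrophage probes and none of 7 blood probes was called. The part of these cell types in the member differences was not tested.

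Other genes of the calcium pathway were read from lists chosen with earlier results of these data known. Among 27 probes for regulators of the junction and of release, 4 fell and 2 rose in double null hearts relative to wild type, or 22.2% called against 20.9% of all probes. Srl, encoding the reticulum protein sarcalumenin, fell by 0.99 on the log2 scale (limma, adjusted p = 0.00563), and Jph2, which ties the reticulum to the surface membrane, fell by 1.02 at its probe A_52_P142143 (adjusted p = 0.0161). Trdn, encoding triadin, fell by 0.28 (adjusted p = 0.0262). Ryr1, the skeletal release channel, rose by 0.81 at its probe A_52_P391110 (adjusted p = 0.0310). The median of this list was -0.09, against -0.01 over all probes.

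Genes that control phospholamban and the ryanodine receptor by phosphorylation had 6 of 27 probes lower and 2 higher in double null hearts, with a median of -0.21, or 29.6% called against 20.9% of all probes. Adcy6, an adenylyl cyclase, differed by -1.001 ± 0.130 (limma, adjusted p = 0.000258), Pde3a, a cyclic AMP phosphodiesterase, by -0.77 ± 0.13 (adjusted p = 0.00118), and the beta-adrenergic receptor Adrb1 by -0.76 ± 0.18 (adjusted p = 0.00822). Ppp1cb, a catalytic subunit of protein phosphatase 1, rose by 0.55 ± 0.08 (adjusted p = 0.000467). Pde3a was also lower in MuRF1 null MuRF2 het than in wild type hearts, at a difference of -0.67 ± 0.13 (adjusted p = 0.0299).

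Channel subunits other than Cacna1c had 2 of 12 probes lower and 1 higher in double null hearts, with a median of 0.18, or 25% called against 20.9% of all probes. The 2 were both probes of Cacna2d1, an accessory subunit of the L-type channel, at -0.83 and -0.78 (limma, adjusted p = 0.00653 and 0.00649), and Cacnb1, a beta subunit best known from skeletal muscle, rose by 0.36 (adjusted p = 0.0209). None of 6 probes for other calcium pumps and exchangers and none of 5 for store-operated entry passed in this comparison by limma. In each list 1 probe had an unadjusted p under 0.05, against 37.3% of all probes.

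The genes whose ratios ran most closely with each member called in double null hearts were ranked by Pearson correlation over the 16 arrays, with members left out. The arrays share slides and the dim ones among them, so the values are descriptions. For Hrc they were Ppm1k (0.955), Grb14 (0.95) and Slc26a6 (0.945). For Atp2a2 A_51_P451075 they were Etfdh (0.902), Acsl1 (0.832) and Trdn (0.83). For Atp2a1 A_51_P244856 they were Dlst (0.975), Hbs1l (0.937) and Gnpat (0.936). For Ryr2 they were Trak1 (0.961), Ttn (0.95) and Dsp (0.945), and for Slc8a1 Rtn4ip1 (0.970), Nnt (0.964) and Slc26a6 (0.959).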

How the data were processed

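Heart RNA was measured on 16 two-colour Agilent 4x44K arrays. The deposited array files hold, per the file headers, a mean intensity per spot and a local background median intensity in both colours, and the log10 of Cy5 over Cy3 as the authors' scanner software, Agilent Feature Extraction, wrote it (version 9.5.3.1 on slide 4 and 9.1.3.1 elsewhere). The deposited series matrix holds log2 ratios. From the values, most are that log ratio centred on its probe's median across all hearts (median absolute difference of at most 0.00113 per array, r of 0.98155 or more). The labelling protocol names only Cy3-CTP, and the channel entries of the labels were followed for the dyes. No arrays had the dyes swapped.

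Intensities were processed in R 4.3.3 with limma 3.58.1 (files read with data.table, version 1.17.8): normexp background correction with an offset of 50, then loess within each array, with control spots and irregular spots at weight 0, and spots averaged per probe. Probes with Cy5 well above background on at least 4 of 16 arrays were fitted with 1 mean per genotype over all 16 arrays, and the 6 comparisons were tested two-sided with Benjamini-Hochberg adjustment over all probes and a call at an adjusted p under 0.05. Each genotype has 4 arrays, and this number limits the precision. The fit was tested on simulated data. Plots were drawn with matplotlib 3.10.9.

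All probes of the 10 genes are named whether or not they passed, with Trim63 and Trim55. From each other calcium list up to 4 called genes with the smallest p in double null against wild type are named, and up to 2 in each other comparison, of which the text gives some. One further list is not reported here. For each member whose brightest probe was called, the 3 genes most alike by Pearson correlation are named. Nppa, Myl7, Tbx5, Kcnj3 and Myh6 were named after their values were seen. The members and lists were chosen with earlier results of these data known. Alternatives covered background correction, normalisation, scaling, the filter, the deposited ratios, array brightness, slide, replicate number and leaving out each array. No column of the files was left unmapped.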

Additional observations from a re-analysis of the deposited data

Results flagged for a closer look

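Of 88 sets of 4 arrays (22 probes in 4 genotypes), 11 held an array that stood apart from the other 3 by Dixon's criterion, which chance alone meets in about 1 set in 20. Of these, 5 were double null 2, the dimmest array of its group. It read -0.81 for Atp2a1 A_52_P686130, against -1.80 to -1.65 on the others, 3.14 for Pln, against 4.81 to 5.09, -1.05 for Sln A_52_P413395, against -3.90 to -3.43, 0.21 for Slc8a1 A_51_P277373, against 0.84 to 0.86, and -0.11 for the probe Slc8a1 A_52_P313284, which was not well above background. Another 4 were MuRF1 null MuRF2 het 1, likewise the dimmest of its group. It read 0.073 for Atp2a1 A_51_P244856, against 1.98 to 2.22, 1.46 for Atp2a2 A_52_P168097, against 4.23 to 4.36, 0.13 for Atp2a2 A_52_P569001, against 0.91 to 1.05, and 3.61 for Pln, against 5.57 to 5.87. The remaining 2 were in MuRF1 het MuRF2 null hearts. Replicate 2 read 1.43 for Atp2a2 A_52_P569001, against 1.19 to 1.22, and replicate 3 read -0.23 for Sln A_51_P297498, which was not well above background.

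The high Casq1 value of double null replicate 4, 2.06 did not meet the criterion.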

How the results depend on the processing

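Over all alternatives 2652 member values were recomputed. Of these 2348 kept direction and side of the threshold, 123 lost a call, 85 gained one and 5 changed sign where either value was called. A further 91 changed sign without being called either way, 29 of them with 1 array left out. The 5 were Atp2a1 A_52_P686130 under median centring, -0.51 in double null and -0.48 in MuRF1 null MuRF2 het hearts against wild type, Atp2a2 A_51_P451075, 1.10 in double null against wild type after division by the slope and -1.53 in MuRF1 null MuRF2 het against wild type under median centring, and Sln A_52_P413395, -0.44 in MuRF1 null MuRF2 het against wild type under median centring. Median centring also moved the median of all probes to -0.43 in the first 2 comparisons with wild type. The Feature Extraction log ratio moved it to -0.26 in double null against MuRF1 het MuRF2 null hearts.

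Counts of called member probes, 9 in double null against wild type, became 5 with the series matrix and 5 with the Feature Extraction log ratio, 4 with Cy5 above background on all 16 arrays (which tests fewer probes), 4 with Cy5 brightness as a covariate, 4 after division by the slope, 5 with 1 probe per gene and 0 on slide 1 alone. Double null against MuRF1 het MuRF2 null, 9 as reported, gave 4 with the series matrix, 4 with the Feature Extraction log ratio, 3 with probes above background on all arrays and 5 with 1 probe per gene. Double null against MuRF1 null MuRF2 het, 1 as reported, gave 0 each with the series matrix, with the Feature Extraction log ratio, under median centring and with no filter, 2 with probes above background on all arrays, 3 with the covariate and 7 without the 2 dimmest arrays. MuRF1 null MuRF2 het against MuRF1 het MuRF2 null, 4 as reported, gave 1 each with the series matrix and with the Feature Extraction log ratio, 2 without background correction, 0 under median centring and 1 with probes above background on all arrays. MuRF1 null MuRF2 het against wild type, 0 as reported, gave 8 under median centring. MuRF1 het MuRF2 null against wild type, 0 as reported, gave 6 with the covariate (5 higher), 5 without the 2 dimmest arrays (3 higher) and 1 after division by the slope. The share of all probes called under each of these settings is not given, so changes in the counts are not read as particular to the members. Causes beyond those stated were not tested. The covariate, the slope and the omission of dim arrays bear on brightness, and the last 2 were chosen after seeing the data.

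With 1 array left out, counts ranged from 5 to 11 in double null against wild type (5 without double null 2 and 5 without wild type 3), 9 to 13 against MuRF1 het MuRF2 null, 0 to 6 against MuRF1 null MuRF2 het, 0 to 9 in MuRF1 null MuRF2 het against MuRF1 het MuRF2 null, 0 to 3 in MuRF1 null MuRF2 het against wild type and 0 to 1 in MuRF1 het MuRF2 null against wild type. Genotypes share replicate numbers, but same-numbered arrays deviated together at correlations of -0.605 to 0.355, so the numbers were not taken to pair hearts. With the replicate block, counts were 9 in double null against wild type, 9 against MuRF1 het MuRF2 null, 0 against MuRF1 null MuRF2 het and 3 in MuRF1 null MuRF2 het against MuRF1 het MuRF2 null.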
